A study of Rattus norvegicus with 12 samples.

Results

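The 6 arrays of CRI-G1-RR cells, of the 12 arrays in the series, were divided by the replicate number in their titles, and replicates 1, 2 and 3 were set beside replicates 4, 5 and 6. CRI-G1 is an insulin-secreting line from a rat islet tumor. CRI-G1-RR is the original clone, resistant to rotenone, an inhibitor of complex I of the respiratory chain. CRI-G1-RS is a rotenone-sensitive line derived from it. Its 6 arrays serve here for reference, were divided in the same way, and counted in the choice of 1 probe set per gene. They do not enter the differences within CRI-G1-RR. All cells of both lines were untreated and were kept in DMEM of high glucose content, with Glutamax and 10% FBS. Per the labels, the lines were collected pairwise at each passage, which does not say that the title number gives the pair or the order of passages, so the 2 sets of 3 have no order in time here. Each line is 1 culture lineage, so the 6 arrays of a line measure the spread between its samples and not between independent clones. The arrays were Rat 230 2.0 chips from Affymetrix, and the values are linear signals of 31099 probe sets.

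The division was chosen with the signals of these arrays known, and Mafa, Nkx6-1, Ins2 and Hspb8 are the genes by which it was known. Every value for CRI-G1-RR below is therefore a description of these 6 arrays and carries no p-value. The test that does not use those signals is the same division of the 6 CRI-G1-RS arrays. The title numbers are not known to mean the same in both lines. The result of that test is therefore given for CRI-G1-RS alone and is not read as a check of the CRI-G1-RR differences. A difference is given as replicates 4 to 6 minus replicates 1 to 3 on the scale of log2(quantile-normalized signal + 16), which understates differences of dim genes, and its standard error (SE) comes from limma. A probe set is called apart where the 3 arrays of one set all lay above the 3 of the other and the sets differed at least 1.5-fold on that scale. Overlap was judged on the normalized values, while the signals printed for each array are the deposited ones.

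Beta cells make insulin under the control of a small set of transcription factors. Pdx1 and Nkx6-1 are homeodomain proteins of the beta cell program, and Mafa is a leucine zipper factor that binds the insulin promoters and marks mature beta cells. Rats carry a pair of insulin genes, Ins1 and Ins2. Hspb8 is a small heat shock protein that works with the cochaperone Bag3 in the clearance of misfolded proteins. Plagl1 is an imprinted zinc finger transcription factor that is known in human genetics for its link to transient neonatal diabetes.

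The 250 bases before the RefSeq start sites of 5 of these genes are shown because Plagl1 and Hspb8 had the largest differences, Nkx6-1 and Ins2 differed together, and Ins1 is the paralog of Ins2 that did not come apart. Capitals mark every match on either strand to GAANNTTC (a heat shock element unit), TAAT (the homeodomain core), CANNTG (the E-box), TGCTGA (the core of a Maf site) or TATAAA (the TATA box), and overlapping matches run together. The windows are from GRCr8 and run 5′ to 3′ on the strand of the gene: Plagl1 chr1:9297214-9297463 (+), Hspb8 chr12:45837058-45837307 (+), Nkx6-1 chr14:8273988-8274237 (+), Ins2 chr1:207273806-207274055 (-) and Ins1 chr1:261185869-261186118 (+).
Plagl1: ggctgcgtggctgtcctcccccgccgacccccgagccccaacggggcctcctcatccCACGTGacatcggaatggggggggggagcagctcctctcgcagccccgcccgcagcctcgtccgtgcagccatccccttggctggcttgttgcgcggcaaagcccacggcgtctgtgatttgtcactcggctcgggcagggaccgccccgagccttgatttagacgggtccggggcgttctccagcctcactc
Hspb8: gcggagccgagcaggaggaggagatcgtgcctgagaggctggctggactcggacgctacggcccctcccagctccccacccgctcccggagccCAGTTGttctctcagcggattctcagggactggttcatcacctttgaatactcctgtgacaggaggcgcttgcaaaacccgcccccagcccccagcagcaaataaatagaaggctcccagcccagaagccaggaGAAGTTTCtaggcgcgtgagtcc
Nkx6-1: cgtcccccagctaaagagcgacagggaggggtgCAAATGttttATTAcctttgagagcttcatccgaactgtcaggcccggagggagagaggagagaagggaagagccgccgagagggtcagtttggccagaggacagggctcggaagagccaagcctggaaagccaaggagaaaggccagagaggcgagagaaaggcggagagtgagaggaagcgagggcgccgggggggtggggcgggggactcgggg
Ins2: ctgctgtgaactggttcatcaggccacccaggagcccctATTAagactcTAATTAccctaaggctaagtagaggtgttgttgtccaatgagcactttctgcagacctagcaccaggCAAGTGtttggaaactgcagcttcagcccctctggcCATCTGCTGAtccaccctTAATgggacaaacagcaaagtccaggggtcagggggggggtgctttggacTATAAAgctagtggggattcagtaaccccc
Ins1: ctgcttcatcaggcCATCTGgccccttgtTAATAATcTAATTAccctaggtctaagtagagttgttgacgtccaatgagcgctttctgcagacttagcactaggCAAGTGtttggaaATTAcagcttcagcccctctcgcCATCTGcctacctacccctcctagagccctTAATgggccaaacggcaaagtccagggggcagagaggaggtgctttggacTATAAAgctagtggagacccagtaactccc
The heat shock element unit was found in the Hspb8 window, 23 bases before the start, and it occurs in 7.08% of the 27457 windows of the same length. Both insulin windows hold TATAAA 30 bases before the start, which 13.1% of all windows hold. TAAT had 4 matches in Ins2, 6 in Ins1 and 1 in Nkx6-1, and 56.3% of windows hold at least 1. TGCTGA had 1 match in Ins2 and none in Ins1, and 15.3% of windows hold it. No other Maf sequence was searched for, so a window without TGCTGA may still hold a Maf site. E-boxes were found in every window shown, and in 65.3% of all windows. The 11734 windows of genes on the array had lower shares. These were 4.93% for GAANNTTC, 8.0% for TATAAA, 41.7% for TAAT, 13.4% for TGCTGA and 59.0% for the E-box. The Ins2 and Ins1 windows shared 209 of 262 aligned positions (79.8%). These matches are letters in a window and do not show binding.

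Over all probe sets, the CRI-G1-RR arrays resembled each other. Pearson correlations of log2 values lay between 0.984 and 0.987 among replicates 1 to 3, between 0.981 and 0.984 among replicates 4 to 6, and between 0.980 and 0.987 for the 9 pairs that cross the sets. Of 31099 probe sets, 367 were apart (1.18%), of which 194 were lower (0.624%) and 173 higher (0.556%) in replicates 4 to 6. With the deposited scaling alone, the count was 428, and 80.4% of these were lower in replicates 4 to 6 in place of 52.9%. Limma with Benjamini-Hochberg adjustment placed 4 probe sets past an adjusted p of 0.05 (0.0129%), all lower in replicates 4 to 6, and 2158 past an unadjusted p of 0.05 (6.94%). Since the division was chosen on these values, nothing is read from those counts. Among 14218 genes with 1 probe set each, 87 were apart and lower (0.612%) and 60 apart and higher (0.422%), or 1.03% in either direction. In the deposited signals, 0 of the 87 lower and 20 of the 60 higher genes had sets that overlapped. In bulk RNA, fewer cells of a type and less RNA per cell cannot be told apart, and this holds for each difference below.

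Control probe sets were compared between the 2 sets. The ratio of 3′ to 5′ signal of beta-actin was 3.06 to 3.32 on replicates 1 to 3 and 3.51 to 3.79 on replicates 4 to 6, so that the sets did not overlap. The same ratio for Gapdh overlapped (1.23 to 1.29 and 1.25 to 1.28), as did the signals of the bacterial spikes bioB (343 to 419 and 272 to 372) and cre (8352 to 9005 and 7961 to 9007). The dim spike lys was at 31.6 to 45.3 and 22.5 to 31.6, and its sets did not overlap, by less than 0.1. The part of the actin ratio and of the lys signal in the differences below was not tested. In CRI-G1-RS, replicate 2 had an actin ratio of 8.28 where the other 5 arrays had 2.75 to 3.29.

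**Figure D1:**
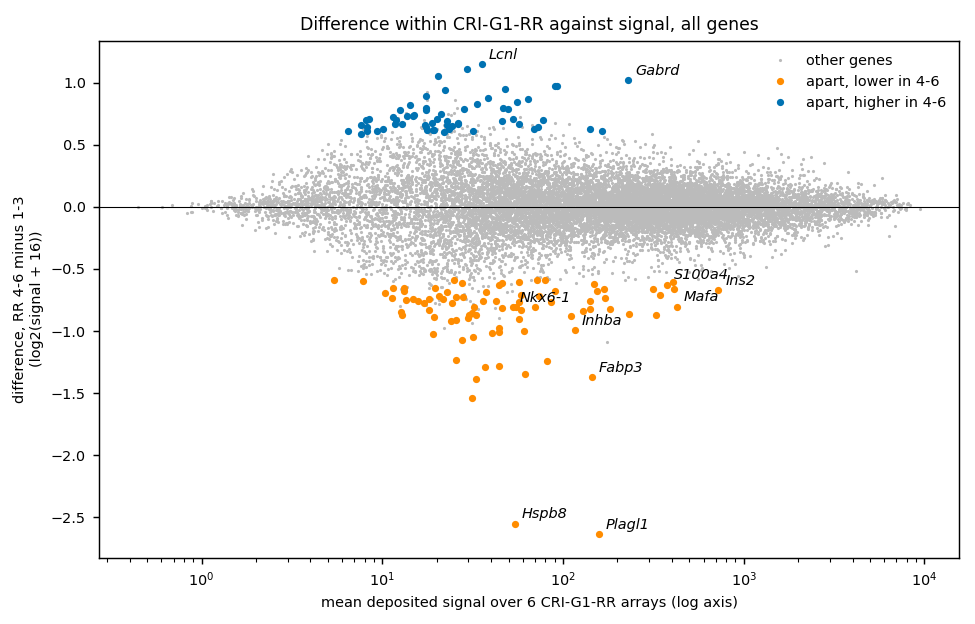
Each point is 1 of 14218 genes, with its mean deposited signal over the 6 CRI-G1-RR arrays on the horizontal log axis and its difference, replicates 4 to 6 minus 1 to 3, on the vertical axis in log2(signal + 16) units. Orange points are the 87 genes apart and lower, blue points the 60 apart and higher. Plagl1 and Hspb8 lie below all other genes, and the blue points lie mostly at low signal.

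The genes that separated the sets most were Plagl1 and Hspb8. Plagl1 had signals of 266, 258 and 331 on replicates 1 to 3 and 26.2, 27.0 and 38.2 on replicates 4 to 6. The sets were far from overlapping, with a difference of -2.63 (SE 0.17). Hspb8 had signals of 100.5, 83.2 and 129.7 on replicates 1 to 3 and 2.18, 5.00 and 3.65 on replicates 4 to 6, a difference of -2.55 (SE 0.15). All 3 arrays of replicates 4 to 6 were thus near the bottom of the signal range for Hspb8. In CRI-G1-RS cells the mean signals were 553 ± 29.9 (SD, n = 6) for Plagl1 and 674 ± 25.7 (SD, n = 6) for Hspb8, so that Plagl1 stood at 51.5% of the CRI-G1-RS level in replicates 1 to 3 and at 5.51% in replicates 4 to 6. A dimmer second probe set of Hspb8 overlapped, with signals of 39.7, 44.0 and 55.0 on replicates 1 to 3 and 44.1, 17.0 and 28.5 on replicates 4 to 6.

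The 4 probe sets counted by limma above were those of Plagl1 and Hspb8, 1 for which the annotation gives no gene, and a dim one of Chn2, a GTPase-activating protein for Rac. They are named because the count is small, and nothing is read from their place in it. The unnamed probe set had 191, 205 and 229.6 on replicates 1 to 3 and 10.6, 18.3 and 15.4 on replicates 4 to 6, and a mean of 858 in CRI-G1-RS. The Chn2 probe set had 40.9, 51.7 and 43.4 on replicates 1 to 3 and 3.77, 2.17 and 2.32 on replicates 4 to 6. The brightest Chn2 probe set was lower as well, with 168, 169.7 and 212 against 111, 85.4 and 96.5 and a difference of -0.76 (SE 0.14).

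Of the islet transcription factors, Mafa and Nkx6-1 were apart and the other 13 of 15 measured members were not. Mafa had signals of 555, 498 and 590.5 on replicates 1 to 3 and 283, 296 and 337 on replicates 4 to 6. Its difference was -0.80 (SE 0.11), and the CRI-G1-RS mean was 1908 ± 177 (SD, n = 6). Nkx6-1 was a dim gene, with 70.6, 74.1 and 75.9 on replicates 1 to 3 and 36.1, 26.3 and 33.8 on replicates 4 to 6. The difference was -0.81 (SE 0.12), and the CRI-G1-RS mean was 149.8 ± 20.8 (SD, n = 6). Pdx1 did not overlap between the sets but differed less, with 360.4, 373 and 333 against 282, 295 and 307 (difference -0.24, SE 0.08). Pax6, Neurod1 and Nkx2-2, which act in several endocrine cell types, overlapped between the sets. In deposited signal, before normalization, Pax6 had a mean of 2482 in replicates 1 to 3 and 2678 in replicates 4 to 6. Neurod1 had 2353 and 2447, and Nkx2-2 1732 and 1849. The zinc finger factor Myt1 was higher in replicates 4 to 6 without overlap, 725, 683 and 661 against 808, 960.0 and 927 (difference 0.36, SE 0.10), and so was Hnf4a, 608, 635 and 561 against 697, 661 and 698 (difference 0.18, SE 0.08). The median difference over the 15 factors was 0.08, beside 0.01 over all genes.

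**Figure D2:**
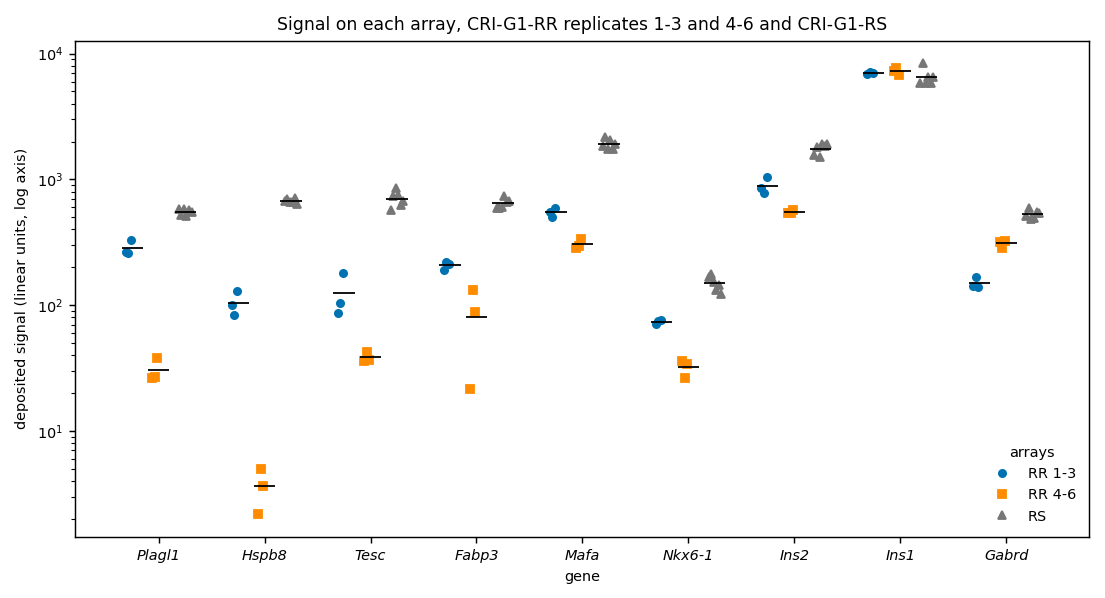
Deposited signal on each array, on a log axis, for 9 genes: blue circles are CRI-G1-RR replicates 1 to 3, orange squares replicates 4 to 6, gray triangles the 6 CRI-G1-RS arrays, and black bars the means. The orange squares lie below the blue circles for Plagl1, Hspb8, Tesc, Fabp3, Mafa, Nkx6-1 and Ins2, overlap them for Ins1 and lie above them for Gabrd.

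Of the pair of insulin genes, Ins2 was apart and Ins1 was not. Ins2 had signals of 860.0, 778 and 1041 on replicates 1 to 3 and 543, 541 and 571 on replicates 4 to 6, a difference of -0.67 (SE 0.12). Without replicate 3 the difference was -0.55, under the 1.5-fold limit. The CRI-G1-RS mean was 1759.7 ± 173 (SD, n = 6). Ins1 had 6901, 7163 and 6989 on replicates 1 to 3 and 7268, 7628 and 6759 on replicates 4 to 6, and its sets overlapped (difference -0.04, SE 0.07). Ins1 was between the 19th and the 49th brightest probe set on each array, near the top of the signal range. Since the insulin genes are closely related paralogs, it is uncertain how far each probe set reads the other transcript. By qRT-PCR on separate samples, the study did not detect Ins2 mRNA in CRI-G1-RR cells. For Ins1 its qRT-PCR gave a larger difference between the lines than its array values did. The signals here are therefore those of the probe sets, and a change in Ins2 RNA alone was not tested. Glucagon (Gcg) also overlapped, with means of 7211 and 7447 in deposited signal.

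Of 21 peptide hormones measured, Ins2 was apart, 12 had signals under 50 on every CRI-G1-RR array, and the median difference was 0.01. Iapp, the amyloid peptide that is secreted with insulin, had 2000.4, 2008 and 1902 on replicates 1 to 3 and 2475, 3082 and 2587 on replicates 4 to 6 (difference 0.40, SE 0.11). Secretin (Sct) had 1328, 1475 and 1442 against 2302, 1629 and 1774 (difference 0.36, SE 0.14). Neither reached 1.5-fold, although for each the 2 sets did not overlap. Among 23 genes of prohormone processing and secretory granules none was apart, and 7 had sets that did not overlap, all higher in replicates 4 to 6. The chromogranin Chga is an example, with 2281, 2241 and 2223 against 2921, 2906 and 2472 (difference 0.23, SE 0.10). Of all genes, 14.8% had sets that did not overlap, 7.2% lower and 7.6% higher in replicates 4 to 6. None of 19 genes of glucose sensing and excitability was apart. The glucose transporter Slc2a2 was listed at 1.80 to 20.8 on all 6 arrays.

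Among the 16 small heat shock proteins and Bag cochaperones, Hspb8 and the alpha-crystallin gene Cryaa were apart. Cryaa was dim, with 22.6, 27.2 and 48.1 against 6.09, 16.9 and 9.80, and was not apart without replicate 3. Bag3, the partner of Hspb8, had means of 246 and 236 and overlapped (difference -0.02, SE 0.12), and Hspb6, a small heat shock protein of similar build, had means of 1103 and 1037. Hspb1 was listed at 3.77 to 16.6 on all 6 arrays. None of 27 cytosolic heat shock proteins was apart, with a median difference of 0.02. Of 34 endoplasmic reticulum chaperones and unfolded protein response genes, none was apart and the median difference was -0.07. The lowest of them was Ero1b, a disulfide oxidase that folds proinsulin, with 281, 296 and 268 against 172, 188 and 177 (difference -0.57) just outside the limit.

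Tesc, Ncs1, Elavl3 and Olig2 were among the 15 genes with the lowest differences. Tesc, an EF-hand protein, had 87.2, 104 and 181 on replicates 1 to 3 and 35.7, 42.7 and 36.7 on replicates 4 to 6 (difference -1.24, SE 0.24), beside a CRI-G1-RS mean of 700.0. Ncs1, the neuronal calcium sensor, had 31.5, 42.9 and 54.9 against 5.45, 1.31 and 17.5 (difference -1.24, SE 0.30). The 3 further probe sets of Ncs1 overlapped, with differences of -0.19, 0.13 and 0.22. Those at 0.13 and 0.22 were brighter in CRI-G1-RR, with means of 48.5 and 48.1 beside 25.6 for the one used. A lower Ncs1 thus rests on 1 dim probe set. Elavl3, a neuronal RNA-binding protein, had 84.9, 95.2 and 108 against 45.0, 18.9 and 17.4 (difference -1.34, SE 0.23). A second Elavl3 probe set overlapped, with a difference of -0.17 and a CRI-G1-RR mean of 67.3 beside 61.6 for the one used. Ncs1 and Elavl3 were the members apart among 36 neuronal genes. The median difference of these genes was 0.01, with 4 members lower and 4 higher without overlap. Olig2, a helix-loop-helix factor of oligodendrocytes, was dim throughout, at 28.0, 23.4 and 45.1 against 5.40, 6.68 and 5.72, and its second probe set overlapped.

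The remaining genes among the 15 lowest have varied roles. Fabp3, which carries fatty acids in the cytosol, had 189.6, 221 and 212 on replicates 1 to 3 and 21.3, 132 and 88.5 on replicates 4 to 6 (difference -1.37, SE 0.49). Replicate 4 was the lowest of these, and without it the difference was -0.78. The glycosyltransferase gene B3galt5 had 47.0, 39.0 and 80.2 against 14.4, 4.00 and 3.80 (difference -1.54, SE 0.25). Nbl1, a secreted antagonist of bone morphogenetic proteins, had 67.2, 64.8 and 78.1 against 9.0, 17.4 and 27.9 (difference -1.28, SE 0.23). Gckr, the regulatory protein of glucokinase, had 30.9, 56.9 and 63.9 against 12.4, 14.5 and 13.1 (difference -1.05, SE 0.20). Spns2, a transporter of sphingosine-1-phosphate, had 61.7, 59.5 and 59.4 against 6.68, 29.7 and 26.6, and its second probe set overlapped. Ankrd34b, Rtl6, Aatk and Tmod1, a cap of actin filaments with a second probe set that overlapped, completed the group, with differences of -1.39, -1.29, -1.07 and -1.01 and means between 43.9 and 67.6 in replicates 1 to 3.

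At signals where the measurement was firmer, 24 genes were apart with a mean CRI-G1-RR signal of at least 100. Of the 8581 genes that bright, 21 were lower (0.245%) and 3 higher (0.035%) in replicates 4 to 6. Inhba, which encodes the activin A subunit, had the smallest standard error of these 24 genes, with 158, 152 and 177 against 66.0, 74.8 and 68.3 (difference -0.99, SE 0.09). Its dimmer second probe set overlapped, with a difference of -0.50. Inhba was the member apart among 34 genes of the Wnt, TGF-beta and BMP pathways. Alcam, a cell adhesion molecule, had 417, 397 and 472 against 218, 229 and 222 (difference -0.87, SE 0.10), and a CRI-G1-RS mean of 1553. The chemokine Cxcl12 had 164, 154 and 203 against 99.1, 73.3 and 85.0 (difference -0.84, SE 0.16). Gch1, the first enzyme of tetrahydrobiopterin synthesis, had 217, 219.7 and 283 against 107, 143 and 119 (difference -0.83, SE 0.15). Far1, which reduces fatty acyl-CoA for ether lipids, had 163, 199 and 201 against 76.1, 98.2 and 113 (difference -0.82, SE 0.16). Ap1s2, a subunit of the clathrin adaptor AP-1, had 349, 353 and 483 against 229.7, 244 and 239.7 (difference -0.66, SE 0.15). Vtcn1, Olfml3, Lingo1, Pnisr and Cds1 were also lower, by -0.88 to -0.62.

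A smaller number of the bright genes had low signals in CRI-G1-RS. The S100 calcium-binding proteins S100a4 and S100a6 are examples. S100a4 had 372, 421 and 605 against 303, 269 and 286 (difference -0.63, SE 0.19), with a CRI-G1-RS mean of 28.8, and was not apart without replicate 3 or without replicate 5. S100a6 had 188, 226 and 228 against 109, 139.8 and 123 (difference -0.67, SE 0.12), with a CRI-G1-RS mean of 35.3. Cbs, the first enzyme of transsulfuration, had 549, 475 and 501 against 264, 382 and 302 (difference -0.66, SE 0.14), with a CRI-G1-RS mean of 73.6, and was not apart without replicate 4. Ugt2b7, a glucuronosyltransferase, had 415, 515 and 563 against 293, 305 and 355 (difference -0.60, SE 0.14), with a CRI-G1-RS mean of 92.4. Tcim was lower by -0.68, with a CRI-G1-RS mean of 14.1.

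**Figure D3:**
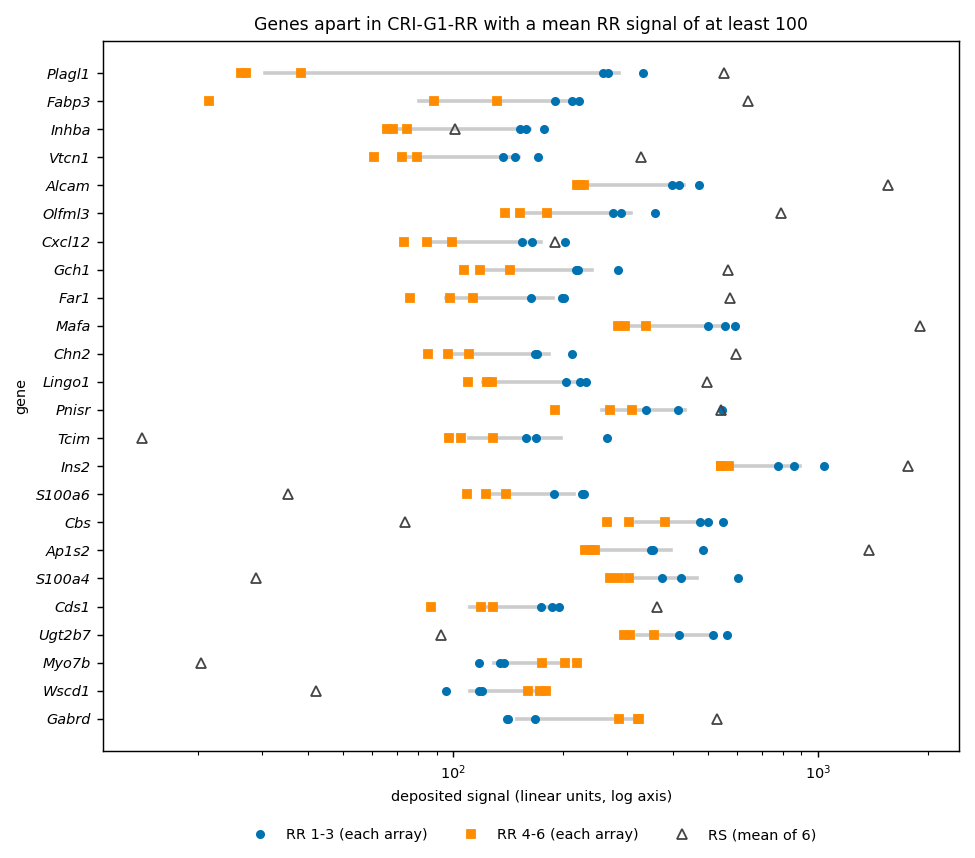
The 24 genes apart with a mean CRI-G1-RR signal of at least 100, 1 per row, on a log axis of deposited signal: blue circles are replicates 1, 2 and 3, orange squares replicates 4, 5 and 6, open triangles the mean of 6 CRI-G1-RS arrays, and gray lines join the means of the 2 sets. For 21 genes the orange squares lie to the left of the blue circles, and for Myo7b, Wscd1 and Gabrd to the right.

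Of the genes higher in replicates 4 to 6, Gabrd, the delta subunit of the GABA-A receptor, was the brightest. It had 141, 167 and 141 on replicates 1 to 3 and 321, 285 and 323 on replicates 4 to 6, a difference of 1.02 (SE 0.11), beside a CRI-G1-RS mean of 527 ± 40.8 (SD, n = 6). A second probe set of Gabrd also did not overlap but was not apart, with 209.9, 249 and 207 against 269.8, 253 and 291. Another, very dim probe set of Gabrd overlapped, with a difference of 0.13. Myo7b, a myosin of the brush border, had 134, 117 and 137 against 219, 202 and 175 (difference 0.61, SE 0.11). Wscd1 had 119.5, 118 and 95.6 against 173, 160.5 and 179.8 (difference 0.63, SE 0.12).

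The others were dim. In 42 of the 60 genes higher in replicates 4 to 6, neither set reached a mean of 50, whereas this held for 35 of the 87 lower genes. Lcnl had 37.3, 7.15 and 11.1 against 50.7, 67.0 and 39.5 (difference 1.15, SE 0.32). Pkp3, a plakophilin of desmosomes, had 13.0, 14.4 and 10.0 against 18.5, 68.5 and 51.6 (difference 1.11, SE 0.33). Rab43, a small GTPase, had 11.7, 9.61 and 12.4 against 33.7, 31.9 and 33.7 (difference 0.94, SE 0.09). Socs3, a feedback inhibitor of cytokine signaling, had 43.0, 35.9 and 11.2 against 45.8, 87.4 and 63.6 (difference 0.95, SE 0.34). Kcnj15, an inwardly rectifying potassium channel, had 43.4, 26.3 and 61.0 against 89.4, 100.3 and 62.5 (difference 0.87, SE 0.23), and its second probe set overlapped. Rhbdf2 owed its place to replicate 3, which read 5.42 where the other 5 arrays read 95.6 to 111, and without it the difference was 0.15. Lrrc29, Rab11fip3, Pcyt1b, Pdzd4, Mus81, Thsd4, Ermn and Pcdh15 had differences of 0.80 to 1.06, and Ermn was not apart without replicate 4. Further probe sets of Thsd4 and Ermn overlapped. The integrin subunit Itgb3, the member apart among 26 integrin and focal adhesion genes, had 5.58, 22.2 and 10.8 against 26.4, 42.8 and 19.0 and was not apart without replicate 1 or replicate 5. On the deposited signals the sets of Itgb3, Pcdh15, Pdzd4 and Rhbdf2 overlapped.

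The genes near the 1.5-fold limit show that it is a cut through a continuous range. Just inside it were Cttnbp2nl (means 101 and 58.7), Il36b (10.0 and 0.843) and Fkbp14 (92.1 and 52.3), and just outside it Tsga10 (306 and 193), Bcl2l1 (248 and 377) and Star (9.14 and 19.7).

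Most of the 32 gene lists held no member apart. This was the case for 23 lists, and in the others 11 members were lower and 1 higher, of 804 genes measured in all. Of all genes, 0.612% were apart and lower and 0.422% apart and higher, so nothing is read from a list without a member apart. The lower members include Mafa, Nkx6-1, Ins2 and Hspb8, by which the division was known. The list medians ran from -0.22 for 7 genes of metallothioneins and zinc response to 0.11 for 8 endothelial markers, beside 0.01 over all genes. Nrf2 targets, which defend against oxidants and which the study examined in these lines, had a median of -0.01 over 36 genes. Among them Nqo1, a quinone reductase, had 1609, 1628 and 1586 against 997, 1291 and 1484 without overlap and without reaching 1.5-fold. Antioxidant enzymes had a median of 0.04 over 26 genes and subunits of complex I, the target of rotenone, a median of -0.02 over 35 genes, and no member of either was apart. Some lists had members without overlap in 1 direction alone, where 7.2% of all genes were lower and 7.6% higher in this way. Of 45 genes of the cell cycle 8 did not overlap, all higher in replicates 4 to 6, and none was apart (median 0.05). Of 31 epithelial and gut genes 8 did not overlap, again all higher, and none was apart (median 0.11). Of 19 p53 targets 4 did not overlap, all lower, and of 36 extracellular matrix genes 6, all lower. Among the epithelial genes the highest difference was that of claudin 7 (Cldn7), with 259, 256 and 274 against 479.7, 345 and 312 (difference 0.50), and the lowest that of the keratin Krt19 (-0.58). Liver-type plasma proteins had no member apart of 28, although Serpina6, which carries corticosteroids in plasma, did not overlap at 4838, 4345 and 5287 against 3711, 3519 and 3353 (difference -0.52, SE 0.09). The matrix gene Col6a2, a chain of collagen VI, was apart, with 57.5, 81.8 and 54.7 against 17.8, 43.4 and 11.9, and its second probe set overlapped.

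**Figure D4:**
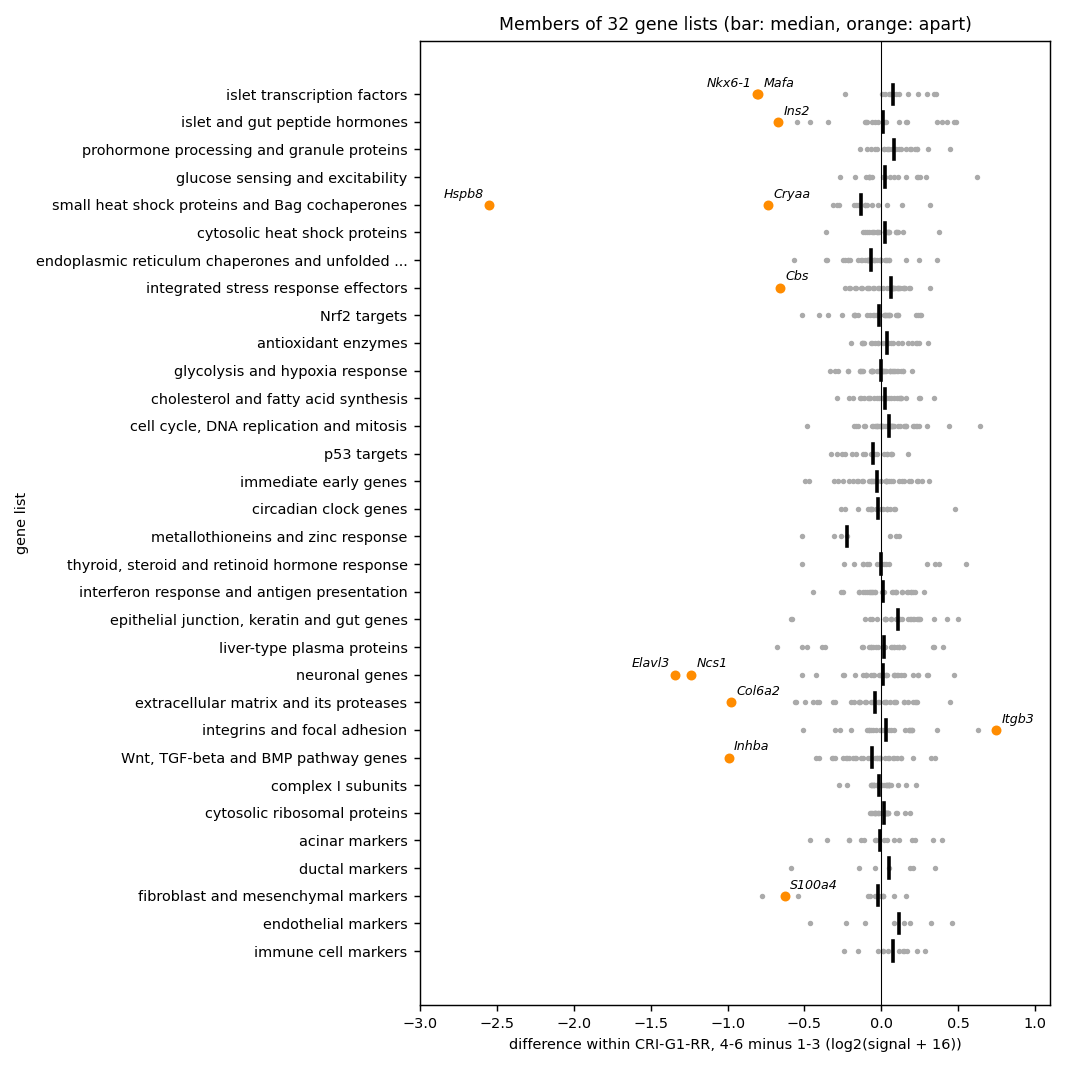
Differences within CRI-G1-RR (replicates 4 to 6 minus 1 to 3, in log2(signal + 16) units) for the members of 32 gene lists, 1 list per row, with black bars for medians and orange points for members that were apart. Medians lie between -0.22 and 0.11, and Hspb8 lies far to the left of every other member.

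Most markers of acinar, ductal, endothelial, immune and fibroblast cells were low in both sets. A mean CRI-G1-RR signal of at least 100 was reached by 1 ductal marker and 2 fibroblast and mesenchymal markers, and by none of the others. The summed signal of 16 acinar markers was 319 to 425 on replicates 1 to 3 and 341 to 366 on replicates 4 to 6, with 12 of 16 under 50 on every CRI-G1-RR array. For 7 ductal markers the sums were 404 to 503 and 365 to 532, for 8 endothelial markers 187 to 237 and 185 to 232, and for 12 immune markers 449 to 522 and 374 to 607, and no member was apart. The sums of 15 fibroblast and mesenchymal markers did not overlap, at 924 to 1163 and 744 to 855. S100a4 was the member apart, and the sums of the other 14 were 551 to 578 and 459 to 552. The defining marker Vim was at 3.59 at most.

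After the values were seen, the genes with a CRI-G1-RS mean of at least 300 and a CRI-G1-RR mean of at most 20 were taken, which left Gnat3 and Lrrn3 and by itself makes their signals low in both sets. Gnat3, a taste-type G protein subunit, had 4.30, 4.97 and 4.92 on replicates 1 to 3 and 2.41, 7.35 and 2.99 on replicates 4 to 6. Lrrn3 had 26.3, 10.6 and 32.5 against 9.17, 14.0 and 4.68, and its sets overlapped. In the other direction, S100g, Nr1h4 and Cldn7 had CRI-G1-RR means of at least 300 and CRI-G1-RS means of at most 20, and none was apart.

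Position on the chromosomes was described as well. Over genes whose mean signal reached 100, the median difference per chromosome ran from -0.05 on chromosome 2 to 0.06 on chromosome 9. The 50 nearest such genes around each of the 39 genes chosen by rule had medians of -0.09 to 0.07. Hspb8, Tesc and Sdsl, a serine dehydratase-like gene that was apart at 40.3, 43.1 and 47.3 against 28.6, 16.4 and 3.33, lie on chromosome 12 in the gene order of GRCr8. The other 11 bright genes between them had differences of -0.29 to 0.24 with a median of 0.06, and none was apart.

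The same division of replicate numbers was then tested in CRI-G1-RS, which shares no array with the comparison above. Limma with Benjamini-Hochberg adjustment over 31099 probe sets called 0 probe sets there, with 1587 past an unadjusted p of 0.05 (5.1%) and a lowest adjusted p of 0.504. With the rule used for CRI-G1-RR, 314 probe sets were apart (1.01%), of which 166 were lower (0.534%) and 148 higher (0.476%) in replicates 4 to 6. Without replicate 2 the count was 529, with 2 arrays left in a set, so that fewer arrays had to be apart. The share of 1.01% is close to the 1.18% in CRI-G1-RR, but this likeness depends on dim probe sets. At a mean signal of at least 50, 95 probe sets were apart in CRI-G1-RR and 60 in CRI-G1-RS. With a pseudocount of 64 the counts were 37 and 13, and with a pseudocount of 1 they were 997 and 902. Of the 367 probe sets apart in CRI-G1-RR, 8 were apart in the same direction in CRI-G1-RS and 8 in the opposite direction. Across all probe sets the differences of the 2 lines had a Pearson correlation of -0.02, given as a description since probe sets of 1 array are not independent.

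The genes lower in replicates 4 to 6 of CRI-G1-RR were not lower as a group in CRI-G1-RS. Of the 87 genes, 0 were apart in CRI-G1-RS, 6 were lower without overlap (6.90%) and 5 higher (5.75%), where 5.96% and 4.99% of all genes were. Of all genes, 0.352% were apart and lower and 0.352% apart and higher in CRI-G1-RS. Their median CRI-G1-RS difference was 0.04. Plagl1 had signals of 582, 521 and 582 on CRI-G1-RS replicates 1 to 3 and 513, 568 and 553 on replicates 4 to 6 (difference -0.04, SE 0.09, adjusted p = 0.968 by limma). Hspb8 had 672, 701 and 662 against 663, 708 and 640.1 (difference -0.02, SE 0.09, adjusted p = 0.987 by limma). Mafa had 1837, 2181 and 1739.9 against 2042, 1732 and 1917, with overlap. Ins2 was higher in replicates 4 to 6 of CRI-G1-RS, at 1566, 1809 and 1518 against 1909, 1858 and 1898 (difference 0.22, SE 0.10, adjusted p = 0.934 by limma). Nkx6-1 was lower there, at 168, 177 and 153 against 132, 145 and 123 (difference -0.29, SE 0.10, adjusted p = 0.934 by limma). Of the 60 genes higher in CRI-G1-RR, 3 were apart and lower and 2 apart and higher in CRI-G1-RS, all with CRI-G1-RS means of 31.7 or less. Among genes with a mean CRI-G1-RR signal under 100, 0.852% were apart and lower and 0.763% apart and higher in CRI-G1-RS.

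**Figure D5:**
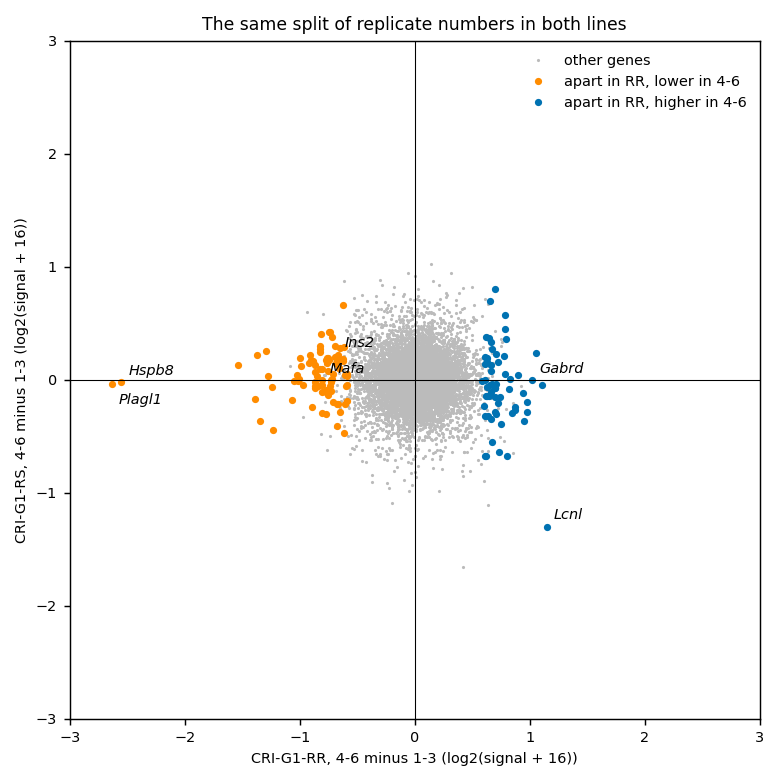
Each point is 1 gene, with its difference between replicates 4 to 6 and 1 to 3 in CRI-G1-RR on the horizontal axis and in CRI-G1-RS on the vertical axis, both in log2(signal + 16) units. Orange and blue points are the genes apart in CRI-G1-RR. They lie on both sides of 0 on the vertical axis, and Plagl1 and Hspb8 lie close to 0 there.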

How the data were processed

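Total RNA of 12 samples, 6 of each line, was hybridized to 1 Affymetrix Rat 230 2.0 array each. The authors deposited linear signal intensity values per probe set, made with GCOS 1.4 according to their processing notes and scaled to a trimmed mean of about 250.1 per array. The study's methods describe RMA and limma on log2 values, which these linear values are not. The number of arrays limits the precision.

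The signals of the 6 arrays of a line were quantile normalized, 16 was added and log2 was taken, and limma 3.58.1 in R 4.3.3 was fitted with the number set as its term over 31099 probe sets. Probe sets were named from GEO's platform annotation: 20832 had 1 symbol, 436 several and 9831 none. A gene was its brightest probe set over 12 arrays, which gave 14218 genes. Genes were named by rule: the 15 apart genes with the largest difference in each direction, Mafa, Nkx6-1, Ins2 and Hspb8, and up to 3 apart members of each list in each direction. The bright genes and other list members were named after their values were seen. The members, the division and the gene lists were chosen with earlier results of these data known. The p-values measure only the spread between samples, and an exact permutation test of 3 against 3 arrays cannot go below 0.1.

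Same-numbered arrays of the lines did not deviate together: correlations of deviations from the line means were -0.06 to 0.08, beside -0.08 to 0.09 for other numbers, and 2 of 6 arrays correlated best with their own number. The alternatives were the deposited scaling, quantile normalization over 12 arrays, median centring, pseudocounts of 1 and 64, a mean signal of at least 50, probe sets without shared-sequence suffixes, an intensity trend, array weights, 1 fit over 12 arrays, a 2-fold limit, the probe set with the highest median, and leaving out each array. The fits were tested on simulated data. Promoter windows came from RefSeq (GRCr8), which held 76 of the 87 lower and 46 of the 60 higher genes.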

Additional observations from a re-analysis of the deposited data

Results flagged for a closer look

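Fabp3 was lower in replicates 4 to 6 of CRI-G1-RR (-1.37) and higher by 0.21 in replicates 4 to 6 of CRI-G1-RS. Ins2 was lower in CRI-G1-RR (-0.67) and higher by 0.22 in CRI-G1-RS, and Lcnl was higher in CRI-G1-RR (1.15) and lower by -1.30 in CRI-G1-RS, each without overlap between the sets. These differences between the lines were not tested.

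An array far from the other 5 of its line was found in 4 of 78 groups of 6. A rate of about 1 in 20 groups holds for 6 values drawn from 1 normal distribution. The CRI-G1-RR groups were chosen because their arrays split into 2 sets of 3, so the count is not compared with that rate. The gap to the nearest array, divided by the whole range, was 0.808 for Elavl3 on CRI-G1-RS replicate 2 (signal 437, the highest), 0.89 for Rhbdf2 on CRI-G1-RR replicate 3 (5.42, the lowest), 0.688 for Rhbdf2 on CRI-G1-RS replicate 6 (40.4, the lowest) and 0.733 for Lrrc29 on CRI-G1-RS replicate 1 (3.51, the lowest).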

How the results depend on the processing

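The count of probe sets apart in CRI-G1-RR (367) was 997 with a pseudocount of 1, 37 with 64, 95 at a mean signal of at least 50 and 42 at 2-fold. It was 631 to 837 when each array was left out in turn, where fewer arrays had to be apart. The 4 limma calls were 0 with a pseudocount of 1, 2 with 64, 14 in 1 fit over 12 arrays, and 0 to 0 with each array left out. In CRI-G1-RS the count apart (314) was 902 with a pseudocount of 1, 13 with 64, 60 at a mean signal of at least 50 and 529 to 716 with each array left out. The value without replicate 2, whose actin ratio stood apart, was 529, an alternative chosen after seeing the data. Limma called 0 probe sets in CRI-G1-RS under every alternative run. The 8 probe sets apart the same way in both lines became 28 with a pseudocount of 1, 0 with 64 and 1 at a mean signal of at least 50, and 9 to 20 with a CRI-G1-RR array or 9 to 16 with a CRI-G1-RS array left out. Of 519 values of the 39 genes named by rule under the alternatives, 0 changed direction, and 32 of the 39 genes were apart with each CRI-G1-RR array left out. The 39 genes were named because they were apart on these same arrays, which largely fixes both counts in advance, so nothing is read from them. With a pseudocount of 64, 15 of the 39 were apart. No paired analysis was possible because replicates 1 to 3 and 4 to 6 of a line share no replicate number.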
